A study of Mus musculus with 12 samples.

Results

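Expression of 10 genes of the endoplasmic reticulum (ER) chaperone and unfolded protein response system was followed in mouse kidney cortex after ischemia-reperfusion (I/R). The genes were chosen by name and make up 10 of the 55487 genes in the deposited count table. They are the chaperones Hspa5 (BiP), Hsp90b1 (GRP94) and Calr (calreticulin), the protein disulfide isomerases Pdia4 and Pdia6, the BiP partners Dnajb9 (ERdj4) and Sdf2l1, the transcription factor Xbp1, the ER-associated degradation factor Herpud1 (HERP) and the ER stress protein Creld2. All 10 passed the filter on low counts in every comparison. On mm10 (GENCODE M21) the chaperone genes lie at chr2:34771970-34777547 (Hspa5), chr10:86690209-86705509 (Hsp90b1) and chr8:84841850-84846934 (Calr), and the isomerase genes at chr6:47796141-47813430 (Pdia4) and chr12:17266545-17284770 (Pdia6). Dnajb9 lies at chr12:44205559-44210326, Sdf2l1 at chr16:17130138-17132383, Xbp1 at chr11:5520659-5525893, Herpud1 at chr8:94386438-94395377 and Creld2 at chr15:88819646-88826683.

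The study examined what augmenter of liver regeneration (ALR, encoded by Gfer) does in ischemic acute kidney injury (AKI). Bulk RNA-seq was performed on 12 kidney cortex libraries, 3 in each of 4 groups. Ctrl mice were ALR flox/flox animals without Cre that received sham surgery, and their labels give the genotype as WT. PT-KO mice were ALR flox/flox-Ggt1-Cre animals with sham surgery, labelled "ALR knockdown", in which Cre is active in proximal tubule cells. The Ctrl+I/R and PT-KO+I/R groups were mice of the same genotypes after 22 min of bilateral renal ischemia and 24 h of reperfusion. All mice were 6 to 8 weeks old on a mixed C57BL/6 background, and both genotypes carried the floxed ALR alleles. The labels do not say whether each library came from a separate mouse, so p-values measure the spread between these libraries.

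Secreted and membrane proteins fold in the ER with the help of BiP, GRP94, the lectin calreticulin and the disulfide isomerases. When unfolded proteins accumulate, the sensors IRE1, ATF6 and PERK are activated: IRE1 cuts Xbp1 mRNA so that it encodes an active transcription factor, cleaved ATF6 moves to the nucleus, and PERK phosphorylates eIF2α and favours translation of ATF4. ATF6 and spliced XBP1 raise the transcription of chaperones and degradation factors, and ATF4 raises CHOP and amino acid synthesis genes. Proximal tubule cells, which carry out most of the reabsorption in the cortex, are among the kidney cells most sensitive to ischemia.

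Library totals ran from 12165089 to 23123693 counts. The sums of 12 proximal tubule markers lay between 16650 and 18320 CPM (counts per 1000000, scaled with TMM factors) in Ctrl, between 4642 and 10920 in Ctrl+I/R and between 3177 and 3886 in PT-KO+I/R. Gfer itself ranged from 11.4 to 14.4 CPM in Ctrl and from 9.96 to 17.1 CPM in PT-KO, and from 15.3 to 19.98 CPM in Ctrl+I/R and from 21.6 to 22.8 CPM in PT-KO+I/R. Whole-gene counts from whole cortex thus did not show a lower level in the libraries labelled knockdown, and after I/R these were all higher than the control libraries (log2 fold change 0.32 ± 0.13, edgeR adjusted p = 0.0723, not past the threshold). Xist was counted 22402 and 19755 times in Ctrl libraries 1 and 2, where 4 Y-linked genes had no count. The remaining 10 libraries held at least 3109 Y-linked counts and at most 11 of Xist, so sex differed within Ctrl. In bulk tissue, fewer cells of a type and less RNA per cell cannot be told apart.

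ATF6 and XBP1 act through short promoter elements, so the promoter windows of the 10 genes were searched (RefSeq windows on GRCm38.p6, 250 bases before to 50 after the gene start, both strands). The ER stress response element (ERSE), which is CCAAT followed by CCACG after a gap of 9 bases of any kind, was found in Hspa5, Hsp90b1, Calr, Pdia6 and Creld2, that is in 5 of the 10 windows. It occurred in 39 of all 32851 windows (0.119%). The related element ERSE-II, which is ATTGG and CCACG with 1 base of any kind between them, was found in Herpud1 and in 12 of all windows (0.0365%). The 10 genes were chosen as members of this stress response, so these shares are a description and no enrichment was tested. The stretches of 60 bases around each match are shown because they set these 6 genes beside one another, with the matched element in capitals. They are written 5′ to 3′ on the strand of the gene, and an ERSE on the other strand opens with CGTGG and ends with ATTGG.
Hspa5 (chr2:34772005-34772064, plus strand): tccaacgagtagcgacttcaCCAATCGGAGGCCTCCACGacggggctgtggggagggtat
Hsp90b1, distal match (chr10:86705617-86705676, minus strand): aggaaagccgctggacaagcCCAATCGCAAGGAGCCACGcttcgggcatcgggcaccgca
Hsp90b1, proximal match (chr10:86705512-86705571, minus strand): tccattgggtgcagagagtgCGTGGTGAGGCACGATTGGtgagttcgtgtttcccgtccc
Calr (chr8:84847054-84847113, minus strand): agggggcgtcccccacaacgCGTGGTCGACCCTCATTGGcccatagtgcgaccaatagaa
Pdia6 (chr12:17266471-17266530, plus strand): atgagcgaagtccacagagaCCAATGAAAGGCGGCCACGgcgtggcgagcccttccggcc
Creld2 (chr15:88819500-88819559, plus strand): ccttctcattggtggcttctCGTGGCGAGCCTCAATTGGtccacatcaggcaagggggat
Herpud1 (chr8:94386353-94386412, plus strand): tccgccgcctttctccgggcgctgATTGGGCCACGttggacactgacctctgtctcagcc

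Hsp90b1 held a pair of elements, 1 on each strand, the first base of the proximal one lying 107 bases before the gene start. Those of Hspa5 and Pdia6 began 65 and 98 bases before the start, and those of Creld2 and Calr 126 and 162 bases before it. In Herpud1 the ERSE-II match began 52 bases before the start. A C/EBP-ATF type element, TGATGNAA, also lay in that window on the other strand, and this motif was present in 3.97% of all windows. The pentamer CCAAT, which is contained in ERSE and on the other strand in ERSE-II, occurred in 9 of the 10 windows against 37.4% of all windows. The XBP1-type motif TGACGTGG (0.676% of all windows) and the cyclic AMP type motif TGACGTCA (1.79%) were in none of the 10.

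**Figure D1:**
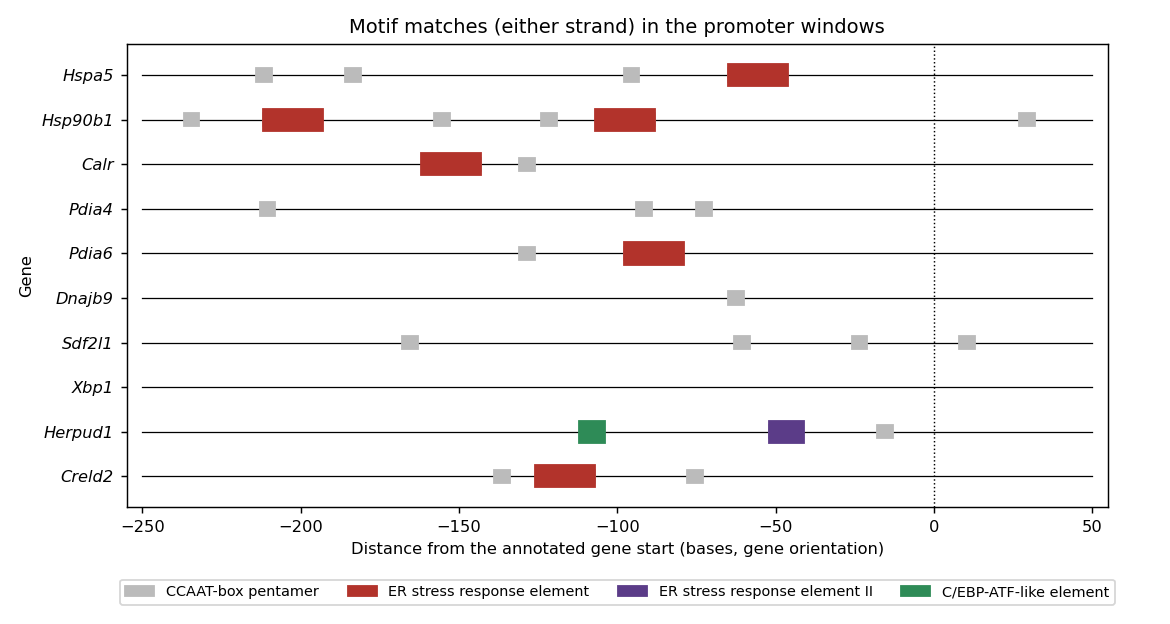
Motif matches on either strand in the promoter windows of the 10 genes, one line per gene, with the distance from the annotated gene start in bases on the horizontal axis and a dotted line at the start. Red boxes (ER stress response element) lie in 5 genes, with 2 of them in Hsp90b1, the purple box (ERSE-II) and the green box (C/EBP-ATF type) lie in Herpud1, and gray boxes are the CCAAT pentamer.

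The window of Dnajb9 is shown whole because this gene had the largest positive fold change of the 10 between the injured groups and none of the longer motifs was found in it. It has no capitals for that reason.
Dnajb9 (chr12:44210019-44210318, minus strand): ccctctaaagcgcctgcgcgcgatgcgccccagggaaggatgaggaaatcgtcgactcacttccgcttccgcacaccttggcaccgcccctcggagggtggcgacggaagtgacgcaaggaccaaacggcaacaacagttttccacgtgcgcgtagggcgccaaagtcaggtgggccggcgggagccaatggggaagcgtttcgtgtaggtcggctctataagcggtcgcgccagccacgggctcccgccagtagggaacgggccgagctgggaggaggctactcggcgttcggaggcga

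The segment that IRE1 removes from Xbp1 mRNA is shown because the counts cannot resolve it. It was found in 3 of 4 Xbp1 transcripts of GENCODE M21, as the 26 bases between the cuts that IRE1 makes after the G of CNG in both CNGCAG sites. In the longest transcript, of 2129 bases, it spans positions 815 to 840 (1.22%). The capitals mark the segment.
Xbp1 mRNA, IRE1 segment: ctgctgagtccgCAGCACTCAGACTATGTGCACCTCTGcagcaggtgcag
Spliced and unspliced Xbp1 mRNA differ by these bases alone, so a count per gene adds both forms together. Xbp1 values below are therefore total Xbp1 mRNA, not its spliced share.

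In sham-operated Ctrl kidneys Calr had the highest level per length, 190.4 ± 11.8 CPM per kb of exon (SD, n = 3). Length is that of all annotated exons of a gene together. For Xbp1 this is 3248 bases, more than its longest transcript of 2129 bases, so ranks per kb depend on this choice. Herpud1 followed with a mean of 129.8 ± 15.3 CPM per kb, though its lowest library lay below the highest of Hspa5. Hsp90b1 (109.7 ± 5.49) and Hspa5 (109.6 ± 10.2) came next and did not differ beyond their spread. Pdia4 and Pdia6 did not differ beyond their spread either, at 42.6 ± 2.34 and 41.3 ± 2.06 CPM per kb. Xbp1 (30.8 ± 2.52), Dnajb9 (24.8 ± 1.0), Creld2 (13.6 ± 2.51) and Sdf2l1 (5.76 ± 1.16) were lower. After I/R in PT-KO mice the order differed. Calr had the highest mean, 157.9 ± 21.7 CPM per kb, but Hspa5 (142.5 ± 2.63) lay within its spread. Xbp1 (124.2 ± 22.1) came next, with Hspa5 within the spread of Xbp1 too. Herpud1 stood at 61.8 ± 12.3 beside Dnajb9 at 63.6 ± 3.28. Sdf2l1 was lowest in all 4 groups, with 63 to 226 counts per library, and every other member had at least 243 counts in each library.

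In control mice, I/R was followed by higher Hspa5, Calr, Pdia4, Pdia6, Sdf2l1, Xbp1 and Creld2 mRNA and by lower Herpud1. Of the 10 genes, 8 passed the test, 7 higher and 1 lower, whereas 19.4% of all 15567 tested genes were called (11.4% higher and 7.97% lower; edgeR quasi-likelihood test, Benjamini-Hochberg adjusted p under 0.05). The median log2 fold change was 0.56 over the 10 genes and -0.01 over all tested genes. The libraries of both groups did not overlap for 9 of the 10, 8 higher and 1 lower, and the same held for 43.6% of all tested genes (21.4% higher and 22.2% lower).

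Hspa5, the most abundant ER chaperone of the HSP70 family and a repressor of all 3 sensors, stood at 450.4, 428 and 512 CPM in Ctrl (libraries 1 to 3). After I/R it stood at 592, 786 and 809 CPM (Ctrl+I/R libraries 1, 2 and 4). Each injured library lay above each Ctrl library. This gave a log2 fold change of 0.66 ± 0.17 (SE; edgeR adjusted p = 0.0351). Calr, a lectin chaperone for glycoproteins that also binds calcium, was at 570.4, 509 and 566 CPM in Ctrl and at 764, 839 and 858 CPM after I/R, again without overlap. Its log2 fold change was 0.59 ± 0.13 (edgeR adjusted p = 0.0272). Hsp90b1, which folds integrins and Toll-like receptors, did not pass the test, although its Ctrl libraries (457, 453 and 417 CPM) all lay below those after I/R (499, 583 and 606 CPM), and its log2 fold change was 0.35 ± 0.13 (edgeR adjusted p = 0.0953).

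The disulfide isomerases rose by similar amounts. Pdia6, which also attenuates IRE1 signalling, was at 163.5, 149.6 and 150.8 CPM in Ctrl and at 219.5, 240.2 and 213.5 CPM after I/R. It had the lowest p of the 10 genes, with a log2 fold change of 0.54 ± 0.11 (edgeR adjusted p = 0.0191). Pdia4 was at 105.8, 95.7 and 105.0 CPM in Ctrl and at 125.0, 144.7 and 150.0 CPM after I/R, a log2 fold change of 0.46 ± 0.11 (edgeR adjusted p = 0.0311). Neither gene overlapped between the groups.

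The partners of BiP differed from each other. Sdf2l1, which keeps ERdj3-bound clients soluble, was at 7.72, 6.29 and 5.15 CPM in Ctrl and at 9.46, 11.8 and 13.1 CPM in Ctrl+I/R, a log2 fold change of 0.84 ± 0.20 (edgeR adjusted p = 0.0316). Dnajb9, a J-domain co-chaperone that brings BiP to IRE1 and to misfolded clients, overlapped between Ctrl (65.9, 60.8 and 63.1 CPM) and Ctrl+I/R (80.9, 76.8 and 61.7 CPM). Its log2 fold change of 0.22 ± 0.12 did not pass the test (edgeR adjusted p = 0.238).

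Xbp1 had the highest fold change, from 92.9, 98.0 and 108.9 CPM in Ctrl to 253, 277 and 129.9 CPM after I/R, a log2 fold change of 1.14 ± 0.26 (edgeR adjusted p = 0.0282). Ctrl+I/R library 4 lay far below the other 2 injured libraries but above all Ctrl libraries. Creld2, a secreted protein with isomerase activity, was at 19.2, 14.8 and 21.6 CPM in Ctrl and at 25.1, 30.5 and 36.8 CPM after I/R (log2 fold change 0.73 ± 0.19, edgeR adjusted p = 0.0352). Herpud1, a scaffold of the HRD1 ubiquitin ligase complex, went the other way. It was at 335.4, 265 and 309 CPM in Ctrl and at 180.7, 117.5 and 198.3 CPM in Ctrl+I/R, so that all injured libraries were lower and the log2 fold change was -0.86 ± 0.21 (edgeR adjusted p = 0.0329).

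Markers of several cell types moved with I/R in control mice, in both directions, and their part in these results was not tested. From Ctrl to Ctrl+I/R, marker sums went from 198.5-256 to 663-787 CPM for fibroblasts and mural cells, from 86.2-102.7 to 134.0-256 CPM for macrophages and monocytes, from 1.45-2.33 to 9.48-41.5 CPM for neutrophils and from 8.79-11.1 to 12.8-52.1 CPM for B and plasma cells, without overlap in these 4 lists. Sums were lower, also without overlap, for the thick ascending limb and distal tubule (5923-7891 to 1704-4297 CPM), the collecting duct (346-381 to 128.6-326 CPM) and podocytes (473-640.1 to 370.1-405 CPM), beside the proximal tubule values above. The tubular injury list went from 997-1988 to 10770-27700 CPM, and the endothelial and T cell sums overlapped. B and plasma cells are rich in Xbp1 and ER chaperones.

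These calls in control mice depended on single libraries. By edgeR, 0 of the 10 genes passed without Ctrl library 1, without Ctrl library 2 or without Ctrl+I/R library 1, where 8, 8 and 9 of them had an unadjusted p under 0.05. Leaving out Ctrl library 3 left 4 calls, Ctrl+I/R library 2 left 3 and Ctrl+I/R library 4 left 5. Without both Xist-carrying libraries only library 3 was left in Ctrl, the column placed there by its name only. A single library has no spread of its own, so only fold changes are given. On the log2 scale they ran from -0.88 (Herpud1) to 1.17 (Sdf2l1). The fold changes of the 10 genes kept their sign in all 14 alternatives run for this comparison. With sex as a covariate in a fit to all 12 libraries, 3 of the 10 passed: Pdia6 (log2 fold change 0.57), Sdf2l1 (1.15) and Herpud1 (-0.90). Both Xist-carrying libraries are in Ctrl, so in this fit the Ctrl level rests on Ctrl library 3. It nearly repeats leaving them out and cannot separate sex from other differences of that library. A fit with a replicate block, whose numbers do not pair the libraries, called 4 of the 10 (Pdia6, Xbp1, Herpud1 and Creld2), and Hspa5, Calr, Pdia4 and Sdf2l1 lost the call (edgeR adjusted p = 0.064, 0.0697, 0.0882 and 0.115).

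**Figure D2:**
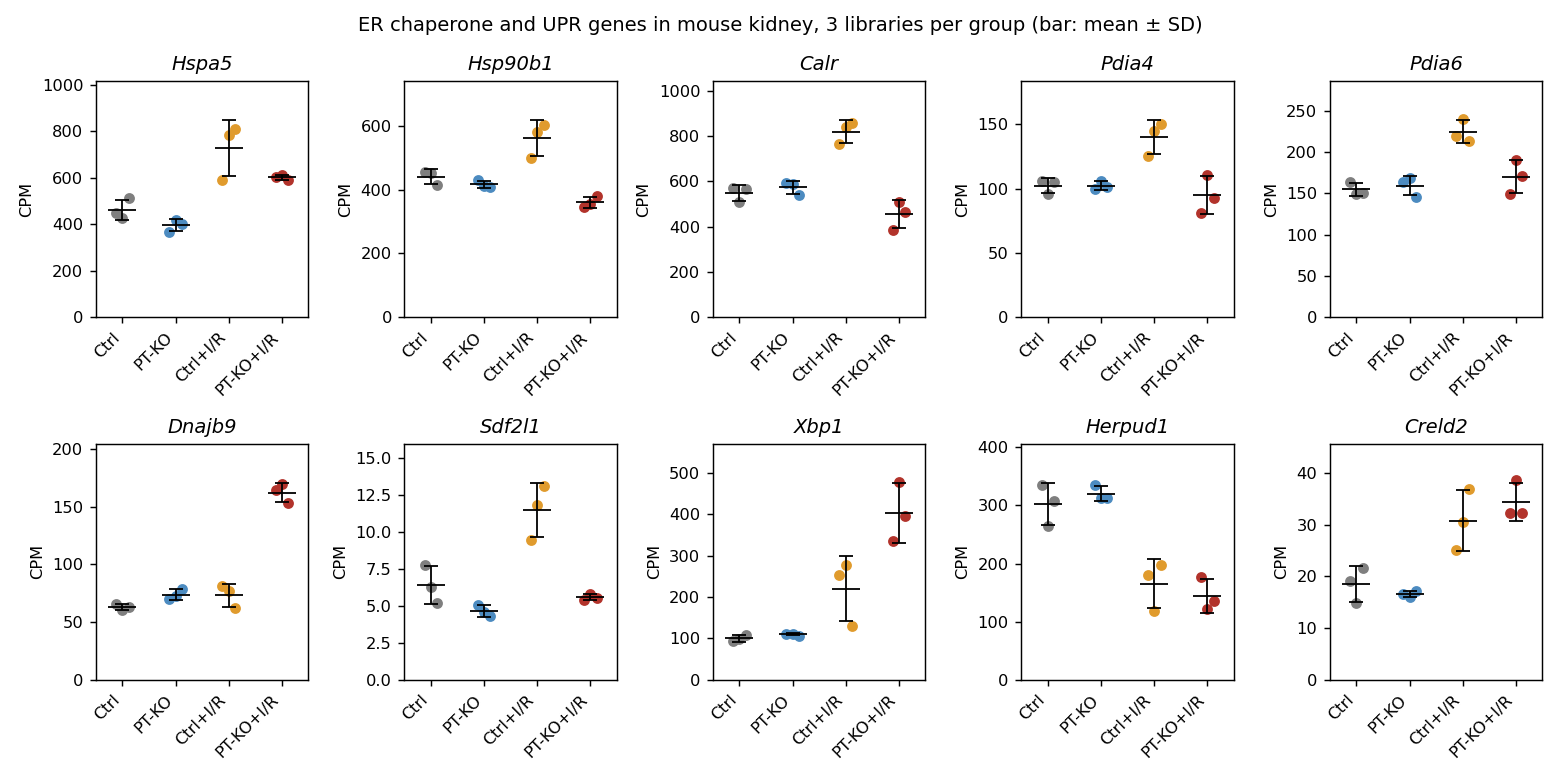
Level of each of the 10 genes in CPM in Ctrl, PT-KO, Ctrl+I/R and PT-KO+I/R, with 1 point per library (3 per group) and a bar at the mean with whiskers of 1 SD. Hsp90b1, Calr, Pdia4, Pdia6 and Sdf2l1 were highest in Ctrl+I/R, whereas Dnajb9 and Xbp1 were highest in PT-KO+I/R and Herpud1 was low in both injured groups.

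Without injury, none of the 10 genes passed the test between genotypes. No gene of the whole table was called between PT-KO and Ctrl by edgeR (0.0% of 15291), while 2573 genes had an unadjusted p under 0.05 and DESeq2 called 458, none of them among the 10. The smallest unadjusted p-values were those of Dnajb9 and Sdf2l1. Dnajb9 was at 70.2, 72.4 and 78.7 CPM in PT-KO, above every Ctrl library (log2 fold change 0.22 ± 0.08, edgeR adjusted p = 0.250). Sdf2l1 was at 5.04, 4.57 and 4.29 CPM in PT-KO, below every Ctrl library (-0.47 ± 0.20, edgeR adjusted p = 0.288). Hspa5 was the third gene without overlap, at 367, 419 and 402 CPM in PT-KO against 428 CPM or more in Ctrl (-0.23 ± 0.10, edgeR adjusted p = 0.304). For all tested genes the share without overlap was 21.0% (9.83% higher and 11.2% lower). The log2 fold changes of the other 7 genes lay between -0.17 (Creld2) and 0.13 (Xbp1).

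In PT-KO mice, Hspa5, Dnajb9, Xbp1 and Creld2 rose after I/R, Herpud1, Calr and Hsp90b1 fell, and Pdia4, Pdia6 and Sdf2l1 did not pass. These 7 calls stood against a background in which 65.5% of 15155 tested genes were called (32.9% higher and 32.7% lower), so the share of the 10 genes called was near that of all genes. The groups did not overlap for 8 of the 10, 5 higher and 3 lower, which held for 70.8% of all tested genes (35.9% higher and 35.0% lower). The median log2 fold change was 0.18 over the 10 genes and 0.01 over all tested genes.

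Cell type markers moved with I/R in PT-KO mice as well, and their part in these results was not tested. Sums were lower without overlap for the proximal tubule (16720-18770 to 3177-3886 CPM), the thick ascending limb and distal tubule (5794-6678 to 2233-2691 CPM) and the collecting duct (299.7-417 to 135.7-200.1 CPM). They were also lower for macrophages and monocytes (88.8-94.1 to 55.9-63.1 CPM), B and plasma cells (12.1-20.2 to 2.13-3.07 CPM) and T cells (3.91-4.66 to 0.427-0.838 CPM). Higher sums without overlap were found for neutrophils (0.92-2.71 to 54.6-82.9 CPM), endothelium (343-376 to 399-421 CPM) and tubular injury (842-1144 to 23900-25980 CPM), while the fibroblast and podocyte sums overlapped. The single endothelial markers went both ways, with 3 of 6 called higher and 2 lower.

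Xbp1 changed most. It was at 110.7, 111 and 106.7 CPM in PT-KO libraries 1, 2 and 4 and at 336, 479 and 395.5 CPM in PT-KO+I/R libraries 2, 3 and 4, so the groups were widely separated. The log2 fold change was 1.87 ± 0.13 (edgeR adjusted p = 1.03e-06), a 3.67-fold difference. Dnajb9 reached 164, 169 and 153 CPM, more than any library of the other 3 groups, with a log2 fold change of 1.13 ± 0.09 (edgeR adjusted p = 2.13e-06).

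Creld2 went from 16.5, 16 and 17.2 CPM in PT-KO to 32.2, 38.7 and 32.3 CPM after I/R, and Hspa5 reached 605, 612 and 590.5 CPM. Both were separated from the sham libraries, with log2 fold changes of 1.05 ± 0.11 for Creld2 and 0.60 ± 0.09 for Hspa5 (edgeR adjusted p = 2.38e-05 and 0.000187). Herpud1 lay at 336, 313 and 313 CPM in PT-KO, compared with 176, 121.5 and 134.8 CPM after I/R, a log2 fold change of -1.16 ± 0.13 (edgeR adjusted p = 3.3e-05).

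Calr lay at 593, 588 and 540.3 CPM in PT-KO, compared with 387, 511 and 466.5 CPM in PT-KO+I/R, lower in each injured library. Its log2 fold change was -0.34 ± 0.11 (edgeR adjusted p = 0.0226), and leaving out a library removed the call in 3 of 6 fits. Hsp90b1 lay at 430.1, 413 and 408 CPM in PT-KO, compared with 346, 356 and 380.5 CPM after I/R, also without overlap. Its log2 fold change was -0.22 ± 0.09 (edgeR adjusted p = 0.0472), which was no longer past the threshold in any of 6 fits with a library left out, nor with a replicate block (edgeR adjusted p = 0.199). The values of Pdia4 (99.5, 105.8 and 101.4 CPM against 81.2, 110.4 and 92.9 CPM) and of Pdia6 (163.5, 168 and 145.8 CPM against 149.3, 189.8 and 171 CPM) overlapped, with 95% intervals of the log2 fold change from -0.36 to 0.14 and from -0.14 to 0.33. Sdf2l1 was at 5.38 to 5.78 CPM after I/R, just above its PT-KO libraries (4.29 to 5.04 CPM), but did not pass (log2 fold change 0.26 ± 0.18, edgeR adjusted p = 0.229).

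After I/R, Sdf2l1, Calr, Hsp90b1, Pdia4 and Pdia6 were lower and Dnajb9 and Xbp1 higher in PT-KO than in control mice, whereas Hspa5, Herpud1 and Creld2 did not pass. Between the genotypes after I/R, 7 of the 10 genes passed, 5 lower and 2 higher, against 46.9% of 15281 tested genes (24.4% lower and 22.5% higher). The same 7 genes did not overlap between the groups, which held for 58.7% of all tested genes. The median log2 fold change was -0.34 over the 10 genes and -0.0049 over all. With the replicate number as a block, which did not pair the libraries, only Dnajb9 of these 7 was called (edgeR adjusted p = 0.0246), and the adjusted p of the other 6 lay between 0.0537 and 0.197, with the same signs. These libraries also enter the comparisons above, so the values are given side by side and are not independent of them.

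Sdf2l1 had the lowest ratio. All PT-KO+I/R libraries (5.38, 5.78 and 5.54 CPM) lay below all Ctrl+I/R libraries (9.46 CPM or more), with a log2 fold change of -1.04 ± 0.17 (edgeR adjusted p = 0.00245). Calr was next: its highest PT-KO+I/R library, at 511 CPM, was below its lowest Ctrl+I/R library, at 764 CPM (-0.86 ± 0.14, edgeR adjusted p = 0.00226). For Hsp90b1 the corresponding values were 380.5 and 499 CPM (-0.65 ± 0.12, edgeR adjusted p = 0.00395).

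Pdia4 (at most 110.4 against at least 125.0 CPM) and Pdia6 (at most 189.8 against at least 213.5 CPM) were also lower without overlap, with log2 fold changes of -0.56 ± 0.14 and -0.40 ± 0.12 (edgeR adjusted p = 0.0111 and 0.0248). The call of Pdia6 was lost in 3 of the 6 fits that left out a library, and that of Pdia4 in 1. Hspa5 overlapped, since Ctrl+I/R library 1 (592 CPM) lay within the PT-KO+I/R range of 590.5 to 612 CPM. Its log2 fold change was -0.28 (95% interval -0.61 to 0.05), and it passed when libraries were scaled to total counts (-0.49, edgeR adjusted p = 0.0306).

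Dnajb9 was the gene with the smallest p. Its lowest PT-KO+I/R library, at 153 CPM, stood well above its highest Ctrl+I/R library, at 80.9 CPM, with a 2.21-fold difference and a log2 fold change of 1.14 ± 0.12 (edgeR adjusted p = 0.000455). Xbp1 was higher in every PT-KO+I/R library (336 CPM or more) than in any Ctrl+I/R library (277 CPM or less), a log2 fold change of 0.87 ± 0.27 (edgeR adjusted p = 0.0302). That call was lost with total-count scaling (0.66, edgeR adjusted p = 0.082) and in 3 of the 6 fits that left out a library. Herpud1 (-0.21, 95% interval -0.72 to 0.30) and Creld2 (0.16, 95% interval -0.20 to 0.52) overlapped and did not pass. Total-count scaling moved the median of all tested genes to -0.21 in this comparison, and under it Creld2 stood at -0.05.

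Cell type markers moved together with these differences, and their part in them was not tested. The sum of 6 fibroblast and mural cell markers was 663 to 787 CPM in Ctrl+I/R and 179 to 302 CPM in PT-KO+I/R, that of 7 macrophage and monocyte markers was 134.0 to 256 CPM and 55.9 to 63.1 CPM, and that of 7 neutrophil markers was 9.48 to 41.5 CPM and 54.6 to 82.9 CPM. The sum of the 12 B and plasma cell markers was 12.8 to 52.1 CPM in Ctrl+I/R and 2.13 to 3.07 CPM in PT-KO+I/R. The 6 T cell markers summed to 5.81 to 16.1 CPM in Ctrl+I/R and to at most 0.838 CPM in PT-KO+I/R. Of these 5 lists, only Tnfrsf17 and Mpo were at 0 counts in a whole injured group, Tnfrsf17 in both and Mpo in Ctrl+I/R. Endothelial markers summed to 351 to 375 CPM in Ctrl+I/R and 399 to 421 CPM in PT-KO+I/R, with 3 of 6 called higher and 2 lower.

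**Figure D3:**
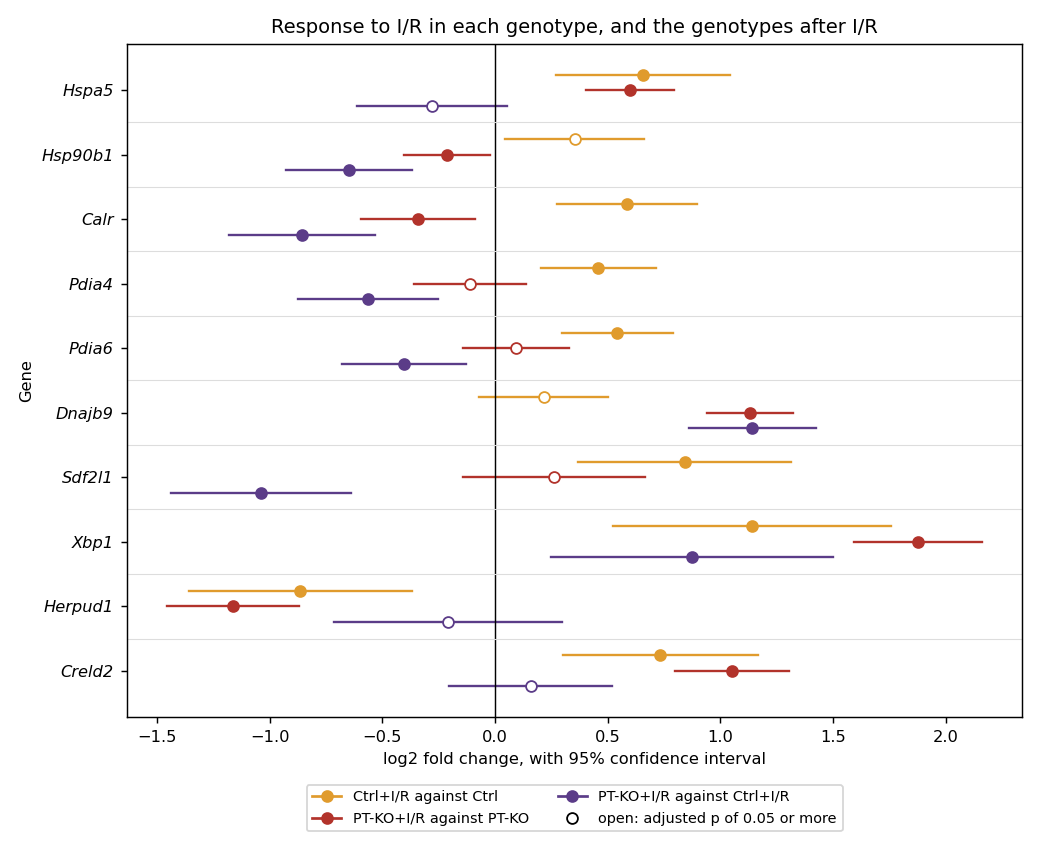
Log2 fold change of the 10 genes with 95% confidence intervals for I/R in control mice, I/R in PT-KO mice and PT-KO against control after I/R, filled where the edgeR adjusted p was under 0.05. Calr lay at 0.59 in control mice and at -0.34 in PT-KO mice after I/R, Dnajb9 at 0.22 and 1.13, and Hspa5 at 0.66 and 0.60.

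Whether the I/R response itself differed between the genotypes was tested as the knockout by I/R interaction on all 12 libraries. It was called for 5 of the 10 genes, 4 lower and 1 higher in PT-KO, against 30.6% of 16168 tested genes (16.4% lower and 14.3% higher). Calr had the largest negative value, with a log2 fold change that was lower by 0.91 in PT-KO (-0.91 ± 0.17, edgeR adjusted p = 0.00197). Hsp90b1 and Pdia4 followed with -0.56 ± 0.14 and -0.56 ± 0.16 (edgeR adjusted p = 0.0129 and 0.0222), and Pdia6 with -0.44 ± 0.15 (edgeR adjusted p = 0.0436). Dnajb9 was the only member with a called positive value, 0.93 ± 0.15 (edgeR adjusted p = 0.000941).

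Calr, Hsp90b1 and Dnajb9 kept the call in 12 of 12 fits that left out a library and with sex as a covariate. Without the Xist-carrying libraries, which leaves only library 3 in Ctrl, their values were -0.88, -0.65 and 0.92. The fit with sex as a covariate rests on the same Ctrl library. In a fit with a replicate block, Hsp90b1 (-0.50) and Pdia6 (-0.51) lost the call (edgeR adjusted p = 0.0913 and 0.0819). Pdia4 lost the call in 3 of the 12 fits and Pdia6 in 9, and both lost it with the sex covariate (edgeR adjusted p = 0.0925 and 0.0936). Hspa5 had an interaction of -0.05 with a 95% interval from -0.44 to 0.35, so no difference in its response was detected, and the interval still held values as low as -0.44. Sdf2l1 (-0.57, edgeR adjusted p = 0.111) and Xbp1 (0.74, edgeR adjusted p = 0.0932) missed the threshold, and Herpud1 (-0.28) and Creld2 (0.33) had intervals that included 0.

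Within Ctrl+I/R, the libraries did not rank the genes alike. Library 4 had the lowest Xbp1 (129.9 CPM), Dnajb9 (61.7 CPM) and Pdia6 (213.5 CPM) of the group and the highest Hspa5, Hsp90b1, Calr, Pdia4, Sdf2l1, Herpud1 and Creld2. Relative to the Ctrl mean, its Xbp1 stood at 0.38 on the log2 scale while libraries 1 and 2 were at 1.34 and 1.47, and its Dnajb9 stood at -0.04 while the others were at 0.36 and 0.28. The same library had the lowest Havcr1, the tubular injury marker KIM-1, at 381 CPM against 785 and 2105 CPM, and the highest sum of proximal tubule markers, 10920 CPM against 8328 and 4642 CPM. In all 3 PT-KO+I/R libraries Xbp1 stood between 1.75 and 2.26 and Dnajb9 between 1.27 and 1.42, with Havcr1 from 2257 to 3929 CPM. With 3 libraries per group these values are a description and no relation was tested.

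**Figure D4:**
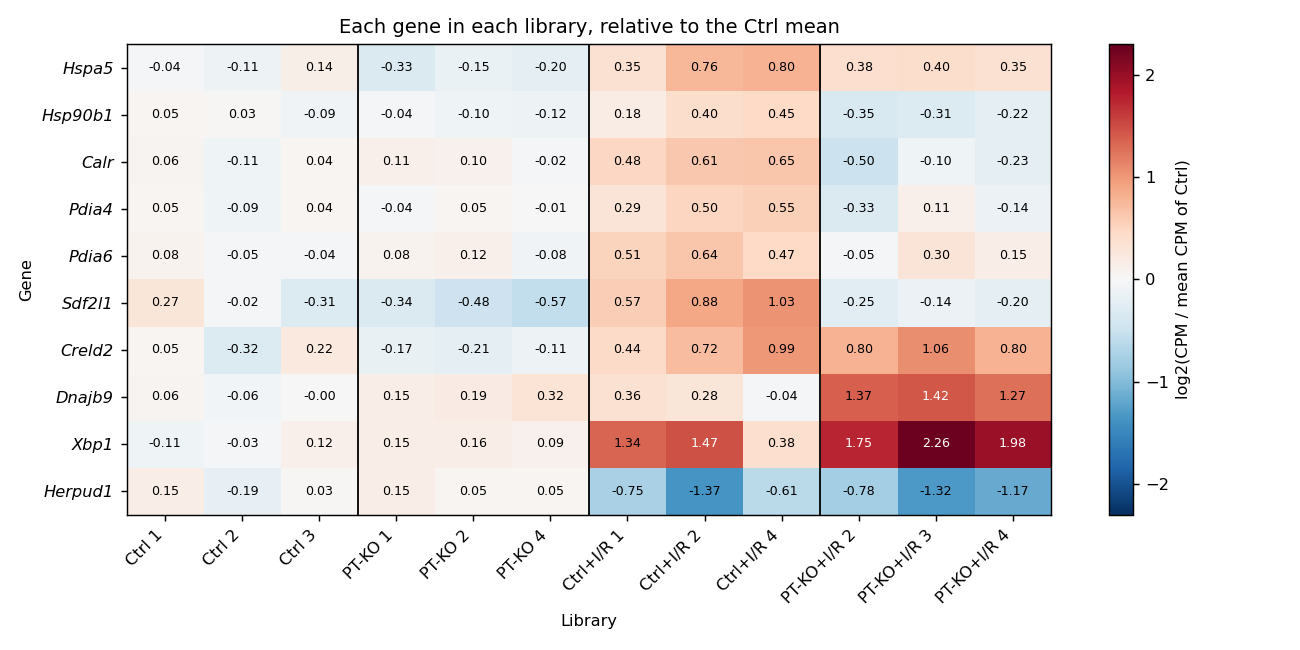
Log2 ratio of each gene in each of the 12 libraries to the mean CPM of Ctrl, as colour and number, with lines between the groups. The upper 7 genes are above 0 throughout Ctrl+I/R, whereas in PT-KO+I/R Hsp90b1, Calr and Sdf2l1 are below 0 in each library, Xbp1 and Dnajb9 are at 1.27 or more and Herpud1 is below 0.

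Other genes of the ER were examined in 8 lists chosen for their function. Without the 10 members, the lists held 187 genes. Of 183 tested in Ctrl+I/R against Ctrl, 22 were higher and 3 lower (12% and 1.64%, against 11.4% and 7.97% of all tested genes), with a median log2 fold change of 0.11. Between the genotypes after I/R, 50 of 183 were higher and 34 lower (27.3% and 18.6%, against 22.5% and 24.4% of all tested genes), with a median of 0.09. Between PT-KO and Ctrl none of 184 passed. The direction differed by list between the injured groups, and each list is given below with its members included.

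Among 25 chaperones and BiP cofactors, 7 rose and 0 fell after I/R in control mice. Without the 10, 4 of 20 rose and 0 fell, against 11.4% and 7.97% of all tested genes. In addition to the 10, Manf, a secreted BiP-binding factor, rose from 35.2 ± 4.71 to 67.5 ± 5.85 CPM (SD, n = 3; log2 fold change 0.94, edgeR adjusted p = 0.00796). Serpinh1 and Fkbp10, which fold collagen, rose by 0.71 and 1.54 on the log2 scale (edgeR adjusted p = 0.0346 and 0.00586), beside the higher fibroblast and mural cell markers (198.5 to 256 CPM in Ctrl). Between the genotypes after I/R, 8 of these 25 were lower and 1, Dnajb9, was higher, and the median was -0.29. Of the 20 that are not among the 10, 6 were lower and 0 higher, against 24.4% and 22.5% of all tested genes. Serpinh1 fell from 183.2 ± 44.2 to 94.8 ± 6.44 CPM, and Cnpy2 and Creld1 were lower by 0.51 and 0.57 (edgeR adjusted p = 0.00515 and 0.017).

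The disulfide isomerases and ER oxidation genes gave 9 lower and 3 higher of 24 between the injured groups, and the glycoprotein folding cycle 7 lower and 1 higher of 15. Without the 10, these were 7 lower and 3 higher of 22, and 6 lower and 1 higher of 14. Of all tested genes, 24.4% were lower and 22.5% higher. Txndc16 (log2 fold change -1.52), Tmx2 (-0.87) and Ero1lb (-0.69) fell in the first list. In the second, Mlec, a lectin for newly made glycoproteins, fell from 727 ± 41.4 to 406 ± 45.9 CPM (-0.85, edgeR adjusted p = 0.00171) and the folding sensor Uggt1 from 90.9 ± 6.79 to 61.7 ± 2.23 CPM (-0.56, edgeR adjusted p = 0.00248). Qsox1, a sulfhydryl oxidase of the secretory pathway, went against its list, from 33.6 ± 3.49 to 114.5 ± 16.4 CPM (1.77, edgeR adjusted p = 0.000188). In Ctrl+I/R against Ctrl, 2 genes of the isomerase list were higher and 1 lower, and 1 of the glycoprotein list was higher (11.4% higher and 7.97% lower of all tested genes). All of the higher ones were members (Pdia4, Pdia6 and Calr).

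The degradation and ATF4 lists had the opposite balance. Of 29 ER-associated degradation genes, 13 were higher and 1 lower in PT-KO after I/R when set against injured control mice, with a median of 0.18, while 22.5% of all tested genes were higher. Ube2j2, an ER-anchored ubiquitin-conjugating enzyme, was at 27.0 ± 3.17 and 56.5 ± 5.86 CPM in Ctrl+I/R and PT-KO+I/R (1.05, edgeR adjusted p = 0.0007), and the VCP cofactors Nploc4 and Ufd1 were higher by 0.98 and 0.93. Rnf5, a ubiquitin ligase of the ER membrane, was the gene that fell (-0.73, edgeR adjusted p = 0.00321). Herpud1 belongs to this list and did not pass in this comparison.

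Of 15 genes of the PERK arm and ATF4/CHOP output, 9 rose and 0 fell in Ctrl+I/R against Ctrl, with a median of 1.19. Of all tested genes, 11.4% rose and 7.97% fell. Ddit3, which encodes CHOP and was singled out after its values were seen, was not among them, at 6.79 ± 1.13 CPM in Ctrl and 6.76 ± 0.478 CPM in Ctrl+I/R (log2 fold change 0.0028, edgeR adjusted p = 0.992), and it did not pass between the injured groups (-0.23, edgeR adjusted p = 0.274). Asns, the asparagine synthetase, was at 3.11 ± 0.956 CPM in Ctrl and 24.3 ± 7.59 CPM in Ctrl+I/R (2.97, edgeR adjusted p = 0.0033). Between the injured groups 8 were higher and 1 lower in PT-KO, against 22.5% and 24.4% of all tested genes. Ppp1r15a (GADD34), which directs dephosphorylation of eIF2α, was at 14.2 ± 4.16 and 68.8 ± 8.45 CPM (2.27, edgeR adjusted p = 0.000291), and Chac1, a glutathione-degrading enzyme, at 1.90 ± 0.953 and 13.5 ± 3.57 CPM (2.79, edgeR adjusted p = 0.00115). Vldlr fell by 0.55. The interaction was called for 4 of the 15, all higher in PT-KO, Ppp1r15a among them (2.12, edgeR adjusted p = 0.000353). Among all tested genes it was called for 30.6% (14.3% higher and 16.4% lower).

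Among 20 tested sensors and transcription factors, 7 were higher and 5 lower between the injured groups (22.5% and 24.4% of all tested genes). Mbtps1, the protease that makes the first cut in ATF6, fell from 81.8 ± 2.20 to 49.6 ± 5.79 CPM (-0.73, edgeR adjusted p = 0.00161), and Mbtps2, which makes the next cut, rose from 24.7 ± 2.41 to 43.5 ± 2.19 CPM (0.81, edgeR adjusted p = 0.000919). Nfya, a subunit of the factor that binds CCAAT, fell by 0.79 (edgeR adjusted p = 0.00556). Bfar rose from 32.0 ± 1.71 to 59.0 ± 0.943 CPM (0.87, edgeR adjusted p = 0.00046). The translocon, signal peptidase and N-glycosylation list gave 9 higher and 5 lower of 35, and the ER-to-Golgi list 10 higher and 3 lower of 31, with Sec22b (0.94) and the cargo receptor Surf4 (0.84) the most increased in the latter.

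**Figure D5:**
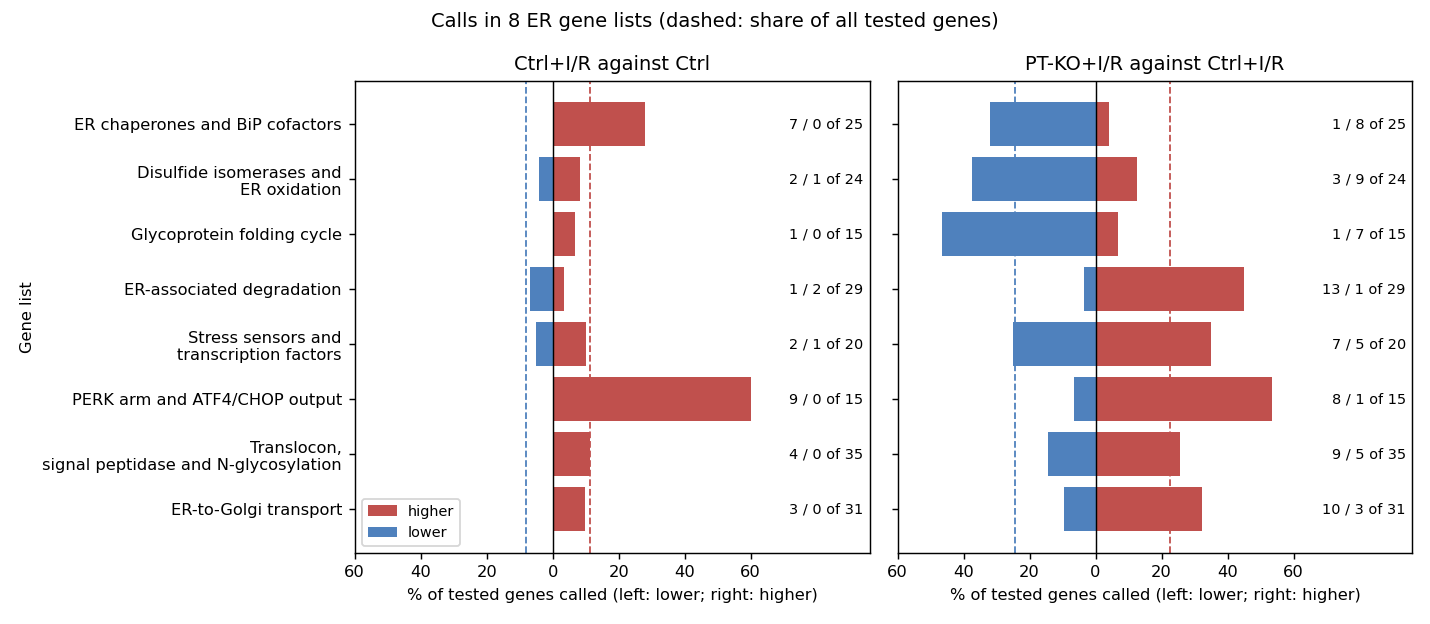
Share of tested genes called higher (red, to the right) or lower (blue, to the left) in 8 ER gene lists for I/R in control mice and for PT-KO against control after I/R, with the number higher, the number lower and the number tested printed beside each bar. Dashed lines mark the shares among all tested genes, 11.4% and 7.97% on the left and 22.5% and 24.4% on the right; the 3 folding lists at the top extend to the left in the second comparison and the degradation and ATF4 lists to the right.

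Over the 12 libraries, the profiles closest to that of Hspa5 were those of Gm10052, Tubgcp2, Rpl29, Tfdp1 and Eri1, with root mean square differences of 0.137 to 0.146 in centred log2 CPM among 9642 genes that averaged 10 CPM or more. Of the other 9 genes, Creld2 (0.219) and Pdia6 (0.241) were nearest to Hspa5 and Xbp1 (0.687) and Herpud1 (0.875) farthest, with Sdf2l1 left out because its mean was below that level. Reads from overlapping genes cannot be assigned with certainty where the strand is unknown. Exons of Hsp90b1 overlap 1810014B01Rik on the opposite strand (32 to 327 counts per library, against at least 4049 for Hsp90b1), and those of Pdia6 overlap Atp6v1c2 on the opposite strand (77 to 665 counts, against at least 1749 for Pdia6).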

How the data were processed

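RNA of 12 kidney cortex libraries, 3 per group, was sequenced on an Illumina instrument. Per the submitters' processing notes, reads were aligned with HISAT2 2.0.4 to mm10; the counting program, annotation and strandedness are not given in the sources used here. The values deposited by the authors are raw counts of reads per gene, with no normalization. Of 12 columns 11 matched a labelled sample, and the other, Ctrl library 3, was placed in Ctrl by its name only. No column of per-sample values was left unused. The 10 genes, the lists and the tests were chosen with earlier results of these data known.

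Each pair of groups was compared on its 6 libraries (filterByExpr, TMM, glmQLFit and glmQLFTest of edgeR 4.0.16 under R 4.3.3), and the interaction on all 12. Genes with a Benjamini-Hochberg adjusted p under 0.05 over all genes tested were called. SEs are the absolute log2 fold change divided by the square root of F. Levels are CPM with TMM factors of the 12 libraries, divided where stated by the length of all annotated exons of the gene together. The fits were tested on simulated counts. Library totals of 12165089 to 23123693 counts set the counting error, and with 3 libraries per group the spread between libraries sets the test.

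All 10 genes were named. From each list, up to 3 further genes per direction could be named, those called with the largest fold changes in Ctrl+I/R against Ctrl or between the injured groups at a mean of 5 CPM or more. Alternatives were DESeq2 1.42.0, total-count scaling, a minimum of 10 counts in each library or no filter at all, 1 fit of all 12 libraries, a block for the replicate number, sex as a covariate, and leaving out the Xist-carrying libraries or each library in turn.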

Additional observations from a re-analysis of the deposited data

Results flagged for a closer look

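The response to I/R differed between the genotypes for 5 of the 10 genes by the edgeR test of the difference itself on all 12 libraries, against 30.6% of 16168 tested genes (14.3% higher and 16.4% lower). The log2 fold change after I/R was lower in PT-KO than in control kidneys by the following amounts: Calr -0.91, Pdia4 -0.56, Hsp90b1 -0.56 and Pdia6 -0.44. For Dnajb9 it was higher, by 0.93. The edgeR adjusted p-values were 0.00197 for Calr, 0.0222 for Pdia4, 0.0129 for Hsp90b1, 0.0436 for Pdia6 and 0.000941 for Dnajb9. Hsp90b1 and Pdia6 lost the call with a replicate block, and Pdia4 and Pdia6 lost it with sex as a covariate. Leaving out a library ended the call of Pdia6 in 9 of 12 fits and that of Pdia4 in 3. Calr was higher after I/R in each control library and lower in each PT-KO library than in the sham libraries of the same genotype, and Hsp90b1 showed the same pattern. Dnajb9 was higher in 3 of 3 PT-KO+I/R libraries than in any PT-KO library, and in 2 of 3 Ctrl+I/R libraries than in any Ctrl library. The proximal tubule marker sum fell after I/R in both genotypes and did not overlap between the injured groups (4642 to 10920 CPM in Ctrl+I/R, 3177 to 3886 CPM in PT-KO+I/R), and its part in these differences was not tested.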

How the results depend on the processing

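Of 730 values of single genes under an alternative, 606 kept their direction and side of the threshold, 100 were no longer called, 5 became called and 19 changed sign. Calls for I/R in control mice depended most on the libraries. Leaving out 1 library gave 0 to 5 of the 10 genes and 379 to 4061 genes in all. Leaving out the Xist-carrying libraries left 1 library in Ctrl, which has no spread of its own, so no calls are given for it. Sex as a covariate, which rests on the same Ctrl library, left 3 of the 10. The fit of all 12 libraries called 4938 genes. For I/R in PT-KO mice, 5 to 7 of the 10 were called under all alternatives run. The cause was not tested.

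Between the injured groups, 4 to 7 of the 10 genes were called when 1 library was left out, the fewest without PT-KO+I/R library 4. For the interaction it was 3 to 5, with 3 without Ctrl library 2, PT-KO library 2 or PT-KO+I/R library 4. Sex as a covariate gave 3 of the 10 and 3233 genes with a called interaction, and leaving out the Xist-carrying libraries 3 and 2539.

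Shared replicate numbers did not pair the libraries: deviations from the group means of 12 same-numbered pairs had a median correlation of -0.0305 (-0.238 to 0.265). With the replicate block, 4 of the 10 genes were called for I/R in control mice and 6 for I/R in PT-KO mice. Between the injured groups 1 was called (Dnajb9) and 1683 genes in all, for the interaction 3 (Calr, Pdia4 and Dnajb9) and 3215 genes, and between PT-KO and Ctrl 0 and 1378 genes. The number of Ctrl library 3 matches no sample title of its group, so it had its own block.

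Between PT-KO and Ctrl edgeR called 0 genes (2573 at an unadjusted p under 0.05). DESeq2 called 458, total counts 1, no filter 388, leaving out the Xist-carrying libraries 8, and leaving out 1 library 0 to 1930, the most without Ctrl library 3. None was among the 10.

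The values that changed sign were not called. In PT-KO against Ctrl, the log2 fold change of Pdia4 was 0.0084 with DESeq2, 0.021 with the block and -0.045 to 0.022 without 1 library. With total counts Calr stood at -0.060, Pdia6 at -0.088 and Herpud1 at -0.042, and Herpud1 ran from -0.0074 to 0.16 without 1 library. Hsp90b1 was at 0.0013 with sex as a covariate and 0.00037 without the Xist-carrying libraries. Between the injured groups Creld2 was at -0.046 with total counts and -0.054 with the block, and Herpud1 at 0.015 with the block. The interaction of Hspa5 was 0.095 with sex as a covariate, 0.089 without the Xist-carrying libraries and -0.18 to 0.029 without 1 library. Total counts moved the median of all genes to 0.11 for I/R in control mice, -0.14 between PT-KO and Ctrl, -0.21 between the injured groups and -0.10 for the interaction.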

Other observations

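I/R in PT-KO mice was also followed in the ER lists, against 65.5% of all tested genes called (32.9% higher and 32.7% lower). Of 25 chaperones and BiP cofactors, members included, 5 were higher and 7 lower, and of 20 tested sensors and transcription factors 10 were higher and 6 lower. Of 15 tested genes of the glycoprotein folding cycle 8 were lower and 1 higher, and of 24 disulfide isomerase and ER oxidation genes 8 were lower and 2 higher. Of 28 tested ER-associated degradation genes 12 were higher and 6 lower. The translocon, signal peptidase and N-glycosylation list gave 18 higher and 4 lower of 35, and the ER-to-Golgi list 12 higher and 2 lower of 31. In the PERK arm 12 of 15 genes were higher and 1 lower, with a median log2 fold change of 1.92.

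For the interaction, the lists were counted without the 10 genes. Of 20 further chaperones and cofactors 0 had a called higher and 6 a called lower response in PT-KO, of 23 isomerase and oxidation genes 2 and 8, of 14 glycoprotein cycle genes 0 and 6, and of 28 degradation genes 10 and 1. The remaining lists gave 3 and 3 of 20 sensors and transcription factors, 4 and 4 of 35 translocon, signal peptidase and N-glycosylation genes, 3 and 2 of 31 ER-to-Golgi genes, and 4 and 0 of 15 genes of the PERK arm. Among all 16168 tested genes 14.3% were higher and 16.4% lower. Of genes named above, the interaction was -1.43 for Mlec (edgeR adjusted p = 0.000763), -1.34 for Txndc16 (edgeR adjusted p = 0.00515), 2.00 for Qsox1 (edgeR adjusted p = 4.08e-05) and 1.03 for Bfar (edgeR adjusted p = 0.00014).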
